A study of Mus musculus with 8 samples.

Results

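The genes described here are 37 genes of glycolysis and of the hypoxia-inducible factor pathway, chosen by name and read from the 35852 genes of the gene table by matching identifiers to GENCODE M21 symbols. Of these, 20 encode glycolytic enzymes and the enzymes that set fructose-2,6-bisphosphate, and 17 encode the hypoxia-inducible factors, their oxygen sensors and genes known to be induced by hypoxia. The samples are poly(A)-selected RNA-seq libraries of bEnd3, an immortalized line of mouse brain endothelial cells. In 4 libraries the cells had received 5 µM corticosterone, the main glucocorticoid of mice, for 24 h, and in 4 they had stayed in medium. All cells grew in DMEM with fetal calf serum. No oxygen level is stated and no vehicle is named for the medium cells, whose treatment protocol also names corticosterone. The labels do not say that replicates were separate cultures, and the spread that p-values are set against may thus be technical. The comparison asks what corticosterone does to the mRNA of these cells.

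Glycolysis splits glucose into pyruvate, and endothelial cells are known to draw much of their ATP from it. Hypoxia-inducible factors are pairs of an oxygen-labile alpha subunit (Hif1a, Epas1 or Hif3a) and a stable beta subunit (Arnt). When oxygen is present, prolyl hydroxylases of the Egln family mark the alpha subunit, the VHL protein binds it and it is degraded, so much of the control of this pathway lies in protein that RNA counts do not show. Genes of glycolysis are among the known targets of the factors, which bind a short core, ACGTG or GCGTG, while the glucocorticoid receptor is known to raise transcription from a palindrome whose 6-base arm is AGAACA.

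Total estimated counts ran from 19.75 to 46.21 M (M is 1000000 counts). Corticosterone replicates 1 and 2 stand apart: their effective transcript length was the transcript length plus 1 in 100% of 61001 long transcripts, against 0% in the other 6 libraries. Reads that fit several transcripts or gene copies were divided differently there, and replicate pairs that include either library differed far more (mean chi-square per gene 44.1 to 95.2) than the other pairs (2.16 to 4.75). Results are therefore given for all 8 libraries and, where they change, for the 6 libraries without these. All 5 glucocorticoid receptor targets examined (Fkbp5, Tsc22d3, Per1, Sgk1 and Zbtb16) were higher with corticosterone. The 10 endothelial markers each exceeded 50 CPM (counts per 1000000 of the scaled library) in every library, and their summed level was 8912 to 9238 CPM with corticosterone and 8105 to 8590 CPM in medium. Summed fibroblast markers were 5.74 to 6.69 CPM with corticosterone and 19.9 to 21.9 CPM in medium, with 3 of 5 under 1 CPM in every library. A single gene, Pdgfra, carried most of that sum (4.87 ± 0.120 CPM with corticosterone and 18.4 ± 1.00 CPM in medium; SD, n = 4). The summed pericyte and smooth muscle, leukocyte, and astrocyte and neuron markers each stayed under 19 CPM in every library. The part of other cell types in the results was not tested, and in such bulk samples fewer cells of a type and less RNA per cell cannot be told apart.

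Of the 37 genes, 34 passed edgeR's filter on low counts and were tested. With corticosterone 10 rose and 5 fell, and 19 did not pass the test (edgeR quasi-likelihood, Benjamini-Hochberg adjusted p under 0.05). Over all 13272 genes tested, 40.1% passed, 19.5% higher and 20.6% lower, so the share among these genes lay near the background. The median log2 fold change was -0.0015 for the 34 genes and -0.0046 for all genes. In 13 of the 34 the groups did not overlap in CPM, against 39.9% of all genes. Of the 17 glycolytic genes tested 5 rose and 1 fell; of the 17 hypoxia genes 5 rose and 4 fell. In the 6 libraries 10 of 35 rose and 5 fell, where 36.4% of 13639 genes passed, 18.4% higher and 18% lower, but membership differed: Gapdh and Pgk1 were among those that rose there, and Aldoa and Egln2 were not.

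**Figure D1:**
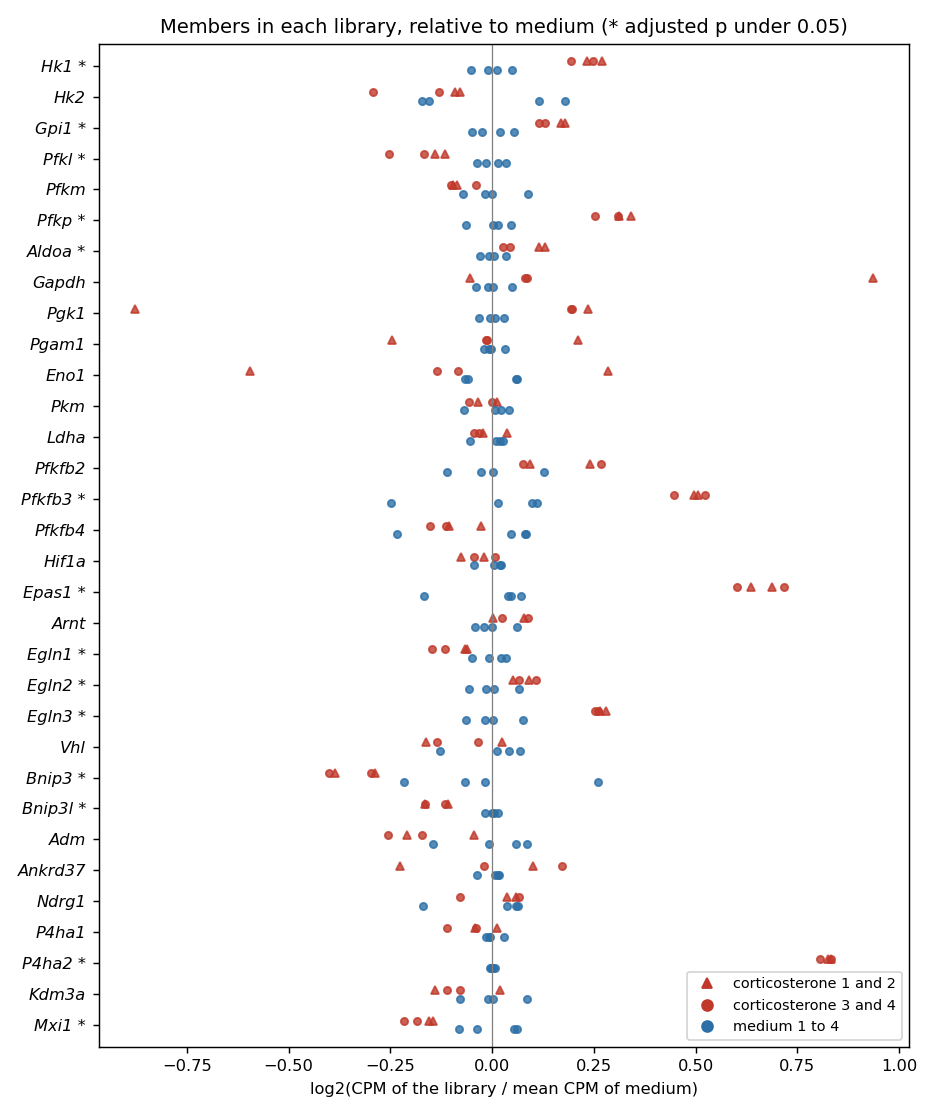
Each point is 1 library, plotted as the log2 of its CPM over the mean CPM of the 4 medium libraries, for 32 of the tested genes (Hif3a and Tpi1 lie off the scale). P4ha2, Epas1 and Pfkfb3 stand to the right in all 4 corticosterone libraries, and the single points far out for Gapdh and Pgk1 are corticosterone replicates 1 and 2.

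Among the factor subunits, Hif3a and Epas1 rose and Hif1a and Arnt did not pass the test. Epas1, which encodes the alpha subunit HIF-2α that is abundant in endothelium (chr17:86753700-86833410, GRCm38), measured 537, 557, 568 and 524 CPM in corticosterone replicates 1 to 4 and 363, 357, 308 and 355 CPM in medium replicates 1 to 4. The groups did not overlap, and medium replicate 3 was the lowest of the 8. Its level was 546 ± 19.5 CPM with corticosterone and 346 ± 25.5 CPM in medium (SD, n = 4), a 1.58-fold rise (log2 fold change 0.66, SE 0.0519, adjusted p = 5.61e-06), and the log2 fold change was 0.66 in the 6 libraries too.

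Hif3a encodes the alpha subunit that lacks part of the activation region of the others and whose short forms are known as inhibitors of HIF activity (chr7:17031507-17062427). It had 66, 34, 53 and 46 counts in the corticosterone libraries and 0, 0, 1 and 0 in medium. Every corticosterone library thus lay far above every medium library, though the level stayed low, at 1.26 to 2.09 CPM. Summed over libraries and scaled for their size, the ratio was 205, with a 95% exact binomial interval of 36.4 to 8142 that covers counting error alone (adjusted p = 4.54e-07). Hif3a passed edgeR's filter on low counts through its corticosterone libraries alone. Its p is thus not independent of its entry to the test, and the counts are the plainer description.

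Hif1a, the alpha subunit known to act on glycolytic genes (chr12:73901375-73947530), measured 244, 234, 248 and 240 CPM with corticosterone and 240, 251, 250 and 248 CPM in medium. These ranges overlapped (log2 fold change -0.03, SE 0.0259, adjusted p = 0.348). Arnt, the shared beta subunit (chr3:95434388-95497240), measured 52.5, 55.3, 55.6 and 53.2 CPM with corticosterone and 54.6, 50.8, 52.4 and 51.6 CPM in medium, overlapping as well (log2 fold change 0.05, SE 0.033, adjusted p = 0.273). Per transcript length, Epas1 (90.4 ± 8.20 TPM, transcripts per 1000000; SD, n = 4) and Hif1a (77.0 ± 0.744 TPM) were the most abundant subunits in medium. Arnt was at 23.0 ± 0.750 TPM and Hif3a at no more than 0.011 TPM.

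**Figure D2:**
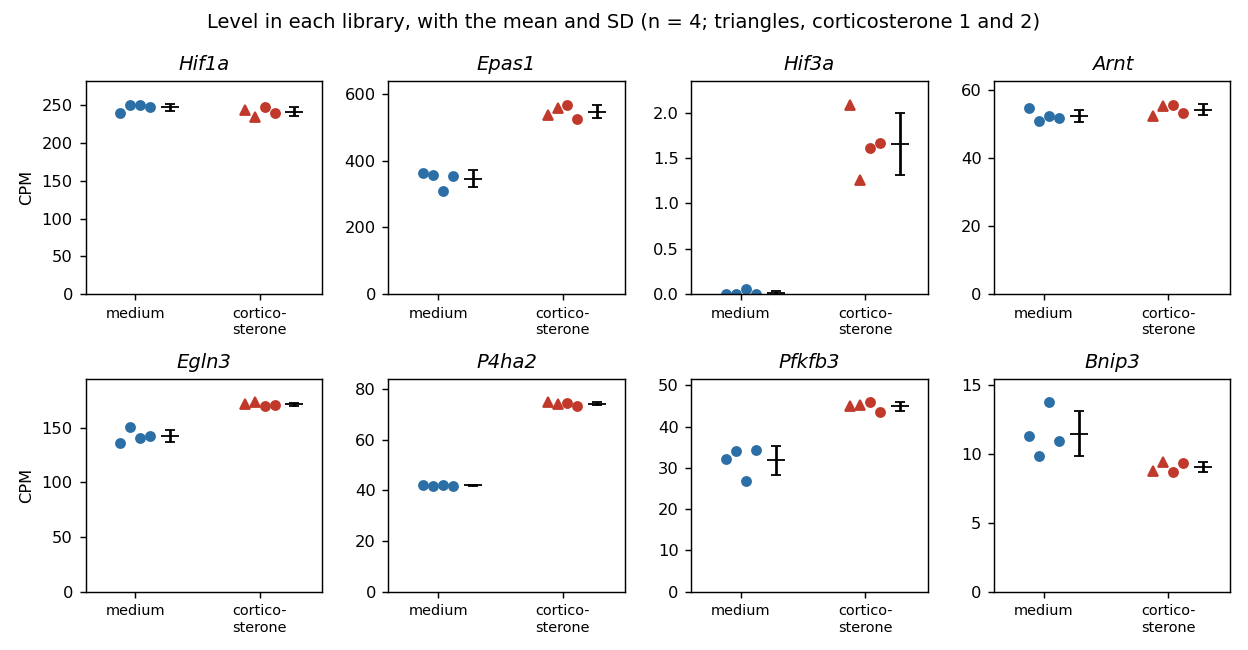
CPM of 8 genes in each library (points; triangles are corticosterone replicates 1 and 2) with the group mean and SD beside them (n = 4), on axes that start at 0. Hif1a and Arnt overlap between groups, while Epas1, Hif3a, Egln3, P4ha2 and Pfkfb3 are higher and Bnip3 is lower in every corticosterone library than in any medium library.

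The sequence before the start site is shown for Hif3a and P4ha2, whose log2 fold changes are the largest of the called genes, and for Pgk1, which rose once its gene copies were accounted for. Each run is the 250 bases before the RefSeq start on GRCm38.p6, 5′ to 3′ on the strand of the gene, and capitals mark ACGTG or GCGTG on either strand (CACGT or CACGC when read here on the other). They lie at chr7:17062428-17062677 (minus strand), chr11:54100674-54100923 (plus strand) and chrX:106186850-106187099 (plus strand).
Hif3a: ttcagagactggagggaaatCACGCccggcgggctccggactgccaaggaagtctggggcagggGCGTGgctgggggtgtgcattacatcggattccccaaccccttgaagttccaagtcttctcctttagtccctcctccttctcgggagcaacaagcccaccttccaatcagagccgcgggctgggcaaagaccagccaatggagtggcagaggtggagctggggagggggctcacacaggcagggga
P4ha2: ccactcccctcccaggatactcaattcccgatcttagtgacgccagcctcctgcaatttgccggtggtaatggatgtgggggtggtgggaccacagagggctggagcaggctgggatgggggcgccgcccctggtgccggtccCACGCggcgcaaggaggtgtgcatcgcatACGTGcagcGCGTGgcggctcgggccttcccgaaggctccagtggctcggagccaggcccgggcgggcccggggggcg
Pgk1: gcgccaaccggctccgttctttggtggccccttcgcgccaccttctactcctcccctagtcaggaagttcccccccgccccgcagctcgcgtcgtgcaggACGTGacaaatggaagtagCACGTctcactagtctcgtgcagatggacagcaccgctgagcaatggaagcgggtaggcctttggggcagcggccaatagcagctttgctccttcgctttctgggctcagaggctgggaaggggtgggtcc
The Hif3a stretch held 2 such cores, P4ha2 held 3 and Pgk1 held 2, and none of the 3 held AGAACA.

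RefSeq promoters were matched for 34 of the 37 genes, with 53 start sites between them; Epas1, Bnip3l and Ndrg1 had none. On either strand, ACGTG or GCGTG occurred in 79.2% of the 53 (42 promoters of 30 genes) and in 38.6% of all 32851 promoters of the same length. Windows of the same gene can overlap, as for Aldoa, Eno1 and Pfkm, so the same core can count in several of the 53. The promoters also differed in base composition: the median GC content was 60.0% for these 53 and 52.4% for all. The palindrome CACGTG, each copy of which also holds ACGTG on both strands, occurred in 11.3% against 6.02%. AGAACA was found in 15.1% of these promoters and in 16.1% of all, and the full palindrome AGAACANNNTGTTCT in 0 of 53 and in 3 of all. These matches describe letters in a window and say nothing about binding.

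Of the oxygen sensors, Egln3 rose and Egln1 (lower) and Egln2 (higher) had small differences that kept their sign in all 17 alternatives but not their calls. Egln3, a prolyl hydroxylase that is itself a known hypoxia-induced gene (chr12:54178981-54203860), measured 171, 173, 170 and 171 CPM with corticosterone and 136, 150, 141 and 143 CPM in medium. All corticosterone libraries lay above all medium libraries (log2 fold change 0.27, SE 0.0293, adjusted p = 1.24e-05). Egln1, the main oxygen sensor of most cells, was at 53.4 ± 1.53 against 57.1 ± 1.43 CPM (SD, n = 4; log2 fold change -0.10, adjusted p = 0.0248). That call was lost in 8 of 17 alternatives, among them DESeq2 (adjusted p = 0.106) and leaving out corticosterone replicate 3 or 4 or medium replicate 2, 3 or 4 (adjusted p 0.0507 to 0.0948). Egln2, whose groups overlapped, stood at 0.08 on the log2 scale (adjusted p = 0.0479) and lost its call in 11 of 17, including the 6 libraries (0.09, adjusted p = 0.0678). Leaving out corticosterone replicate 2, 3 or 4 or medium replicate 1, 3 or 4 also ended it (adjusted p 0.067 to 0.111). Vhl, the substrate receptor for hydroxylated alpha subunits, did not pass (log2 fold change -0.08, adjusted p = 0.325).

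Of the 9 known hypoxia targets among the 37, P4ha2 rose, Bnip3, Bnip3l and Mxi1 fell, and 5 did not pass, a count near the 40.1% called among all genes. P4ha2 encodes the catalytic subunit of a collagen prolyl 4-hydroxylase (chr11:54100095-54131665). It measured 74.8, 74.3, 74.7 and 73.4 CPM with corticosterone and 42.1, 41.8, 42.1 and 41.9 CPM in medium, so libraries within a group were nearly alike and the groups lay far apart. The rise was 1.77-fold (log2 fold change 0.82, SE 0.0241, adjusted p = 6.26e-11). Its paralog P4ha1, which pairs with the same partner subunit, did not pass (130 ± 4.54 against 134 ± 1.91 CPM; SD, n = 4; adjusted p = 0.229).

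Bnip3, a mitochondrial receptor for mitophagy (chr7:138890836-138909519), measured 8.77, 9.38, 8.68 and 9.32 CPM with corticosterone and 11.3, 9.86, 13.7 and 10.9 CPM in medium. The groups did not overlap, though medium replicate 2 lay close to the corticosterone libraries (log2 fold change -0.34, SE 0.0899, adjusted p = 0.00903). Its relative Bnip3l, which acts in the same process, fell with a log2 fold change of -0.14 (128 ± 2.67 against 141 ± 1.29 CPM; SD, n = 4; adjusted p = 4.16e-04). Mxi1, a partner of MAX that opposes MYC, fell (log2 fold change -0.17, adjusted p = 0.0113), a call that DESeq2 did not make (adjusted p = 0.0562). The remaining targets had no call: the vasodilator peptide gene Adm was at -0.17 on the log2 scale (adjusted p = 0.178), the histone demethylase Kdm3a -0.08 (0.184), Ankrd37 0.01 (0.941) and Ndrg1 0.02 (0.8).

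At the entry to glycolysis, Hk1 and Gpi1 rose and Hk2 did not pass. Hk1, a hexokinase that phosphorylates glucose at the mitochondrial surface, rose from 350 ± 10.2 to 412 ± 9.13 CPM (SD, n = 4; log2 fold change 0.24, SE 0.0271, adjusted p = 1.72e-05). Hk2, the inducible hexokinase of muscle and many tumours (chr6:82725025-82774454), measured 4.02, 3.99, 3.88 and 3.47 CPM with corticosterone and 3.82, 4.60, 3.77 and 4.81 CPM in medium. The groups overlapped (log2 fold change -0.15, SE 0.114, adjusted p = 0.347). Per transcript length in medium, Hk1 was at 143 ± 3.17 TPM and Hk2 at 1.17 ± 0.224 TPM (SD, n = 4). Gpi1, glucose-6-phosphate isomerase, also rose (log2 fold change 0.15, adjusted p = 8.2e-04).

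The 3 phosphofructokinase genes, whose products form the tetramer of a committed step, went different ways. Pfkp, the platelet form (chr13:6579768-6648777), measured 51.8, 50.8, 48.7 and 50.7 CPM with corticosterone and 42.2, 41.3, 39.1 and 41.0 CPM in medium. Its groups did not overlap (log2 fold change 0.30, SE 0.0341, adjusted p = 1.45e-05). Pfkl, the liver form and the most abundant of the 3 in medium (117 ± 4.07 TPM; SD, n = 4), fell from 234 ± 5.12 to 208 ± 8.48 CPM (log2 fold change -0.17, adjusted p = 8.85e-04). Pfkm, the muscle form, did not pass (log2 fold change -0.08, adjusted p = 0.0673). Pfkp shares sequence with the neighbouring gene Pitrm1, and the sum of both genes was still higher (log2 fold change 0.13, adjusted p = 9.07e-04).

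Of the bifunctional enzymes that make and break fructose-2,6-bisphosphate, the allosteric activator of phosphofructokinase, Pfkfb3 rose. Pfkfb3, the form with high kinase activity known for its role in endothelial glycolysis (chr2:11471433-11554077), measured 45.0, 45.3, 45.9 and 43.5 CPM with corticosterone and 32.2, 34.1, 26.8 and 34.5 CPM in medium. The groups did not overlap, and medium replicate 3 was the lowest (log2 fold change 0.49, SE 0.0694, adjusted p = 2.21e-04). Pfkfb2 (log2 fold change 0.17, adjusted p = 0.09) and Pfkfb4 (log2 fold change -0.09, adjusted p = 0.666) did not pass.

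Between aldolase and pyruvate, several enzymes have many processed pseudogenes, and here the 2 libraries that stand apart set the values. Gapdh, which encodes the dehydrogenase often used as a loading control (chr6:125161715-125166467), measured 2502, 1260, 1388 and 1384 CPM with corticosterone and 1274, 1300, 1310 and 1353 CPM in medium. Corticosterone replicate 1 was the highest by far, and corticosterone replicate 2 was the lowest of all 8 (log2 fold change 0.32, SE 0.235, adjusted p = 0.342). The 31 genes that share sequence with Gapdh, 29 of them pseudogenes, summed to 34.7 CPM in corticosterone replicate 1 and to 936 to 1356 CPM in the other 7. Added to Gapdh, the sums were 2536, 2616, 2392 and 2359 CPM with corticosterone and 2209, 2333, 2333 and 2326 CPM in medium, which did not overlap. The summed log2 fold change was 0.10 (adjusted p = 0.0237); 43.6% of all 17966 summed features passed, 22.1% higher and 21.5% lower. In the 6 libraries Gapdh alone gave 0.09 (adjusted p = 0.0377) and the sum 0.03 (adjusted p = 0.446), so a call of Gapdh rests on how copies and libraries are treated.

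Pgk1, phosphoglycerate kinase, one of the 2 ATP-yielding steps (chrX:106187100-106203699), measured 1511, 699, 1468 and 1469 CPM with corticosterone and 1255, 1279, 1290 and 1308 CPM in medium. Corticosterone replicate 2 was the lowest of all, the other corticosterone libraries the highest, and Pgk1 had no call (log2 fold change 0.00, SE 0.251, adjusted p = 0.992). In corticosterone replicate 2 the 4 pseudogenes that share its sequence held 866 CPM, 528 of them in Gm5537 and 338 in Pgk1-rs7, and no more than 3.39 CPM in any other library. Summed with them, Pgk1 was at 1515, 1565, 1469 and 1469 CPM with corticosterone and at the same values as alone, within rounding, in medium. The groups then did not overlap (summed log2 fold change 0.23, SE 0.0265, adjusted p = 1.45e-05). Pgk1 alone was also called higher in the 6 libraries (log2 fold change 0.20, adjusted p = 2.96e-05) and without corticosterone replicate 2 (0.21, adjusted p = 2.01e-05).

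**Figure D3:**
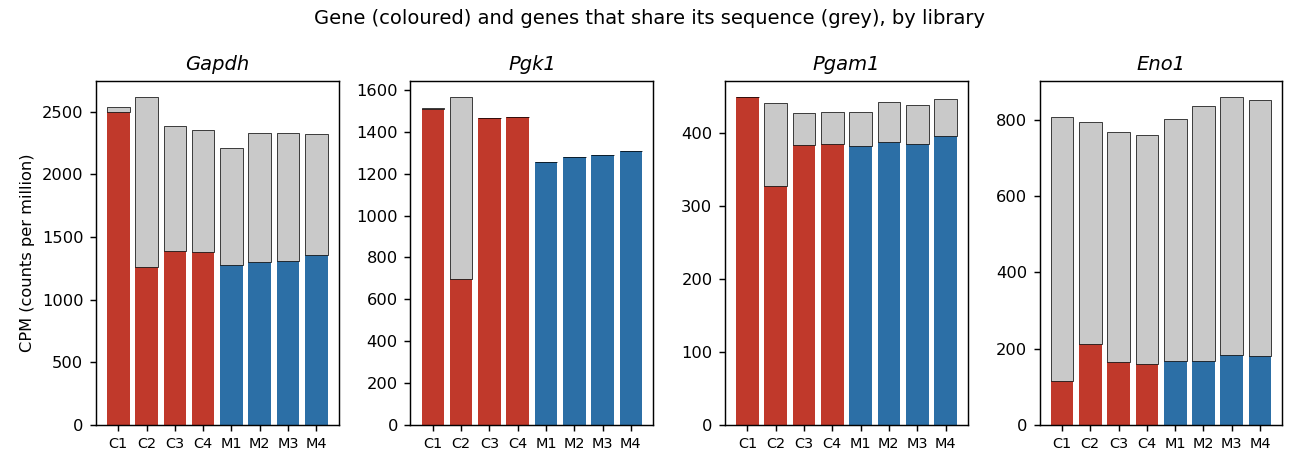
Stacked bars give the CPM of each gene (red, corticosterone replicates C1 to C4; blue, medium replicates M1 to M4) and of the genes that share its sequence (grey), from 0. The split between gene and copies changes in C1 and C2, while the summed height of Pgk1 is higher in all 4 corticosterone libraries (1469 to 1565 CPM) than in medium (1255 to 1308 CPM).

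Eno1, enolase, had no call alone (163 ± 39.6 against 174 ± 8.63 CPM; SD, n = 4; log2 fold change -0.10, adjusted p = 0.714). Most reads of this enzyme were assigned to Eno1b, a near-identical gene annotated as protein-coding, at 628 to 665 CPM in medium, so Eno1 and Eno1b cannot be told apart with certainty. Summed with its 7 sharing genes, Eno1 was lower with corticosterone (783 ± 22.7 against 838 ± 24.8 CPM; log2 fold change -0.10, adjusted p = 0.0139), and in the 6 libraries the summed value was -0.15 (adjusted p = 0.00108). The summed values overlapped between groups over all libraries, with 808 CPM in corticosterone replicate 1 and 803 CPM in medium replicate 1. Pgam1, phosphoglycerate mutase, had no call alone (log2 fold change -0.01, adjusted p = 0.962) or summed (-0.01, adjusted p = 0.806). Aldoa, the main aldolase, rose by little (log2 fold change 0.08, adjusted p = 0.0329); the groups overlapped and the call was lost in 10 of 17 alternatives, including the 6 libraries (0.04, adjusted p = 0.332). Leaving out corticosterone replicate 1 or 2 or medium replicate 1, 2 or 3 also ended it (adjusted p 0.0701 to 0.0987).

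Tpi1, triose phosphate isomerase, is uncertain: it measured 120 and 88.1 CPM in corticosterone replicates 1 and 2 but 7.92 and 8.78 CPM in replicates 3 and 4, and 7.66 to 13.2 CPM in medium. Its transcript Tpi1-205 carries version 9 in the transcript tables and 8 in GENCODE M21, and its counts are not part of the gene-level row. With them added, Tpi1 was at 8.75 to 21.1 CPM in the 6 libraries. A transcript with a retained intron held 72.0% to 85.4% of Tpi1 estimated counts in these 6 libraries. Its share was 74.2% in corticosterone replicate 1 and 19.4% in corticosterone replicate 2. In the 6 libraries the Tpi1 values thus do not give the level of coding mRNA. The log2 fold change was 2.51 with all libraries (SE 1.02, adjusted p = 0.102) and -0.25 in the 6 (adjusted p = 0.509).

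The last enzymes of the pathway did not pass the test. Pkm, pyruvate kinase (chr9:59656368-59679375), measured 2591, 2675, 2552 and 2654 CPM with corticosterone and 2529, 2728, 2692 and 2664 CPM in medium. Ldha, the lactate dehydrogenase subunit that favours lactate (chr7:46841475-46855627), measured 799, 833, 787 and 795 CPM with corticosterone and 782, 823, 817 and 827 CPM in medium. Both overlapped between groups (Pkm log2 fold change -0.02, SE 0.026, adjusted p = 0.604; Ldha log2 fold change -0.02, SE 0.0259, adjusted p = 0.676). Ldhb, the heart-type subunit, had 19, 24, 0 and 3 counts with corticosterone and 0 in each medium library, with most of them in corticosterone replicates 1 and 2, and it did not pass edgeR's filter on low counts. DESeq2, run without that filter, called Ldhb higher (adjusted p = 0.00138), and edgeR without the filter did not (adjusted p = 0.213). The brain-type isoenzymes Aldoc (24 counts against 44) and Eno2 (21 against 33), summed over the libraries of each group, did not pass the filter either. Aldoc passed it in the 6 libraries and had no call there (log2 fold change -0.61, adjusted p = 0.329), and DESeq2 called neither (adjusted p = 0.273 for Aldoc and 0.478 for Eno2).

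**Figure D4:**
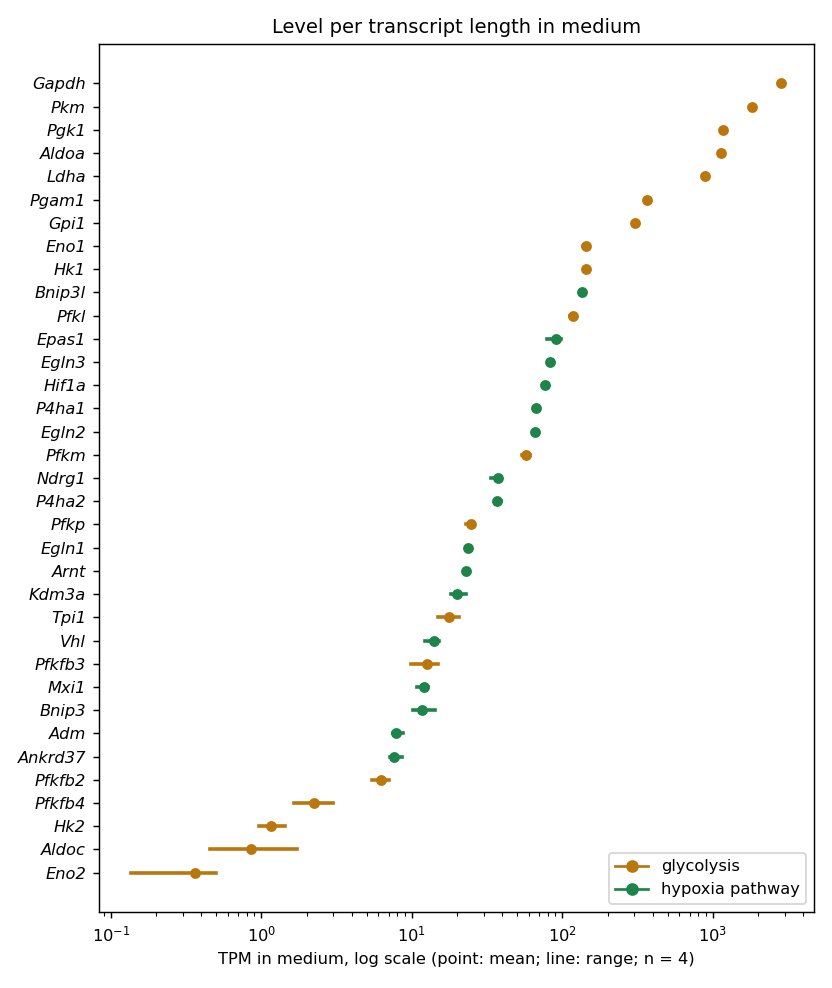
Points are the mean TPM of 35 of the genes in the 4 medium libraries and lines the range, on a log axis (Hif3a and Ldhb, at or near 0, are not drawn). Gapdh, Pkm, Pgk1, Aldoa and Ldha lead, from 2852 down to 885 TPM, and Hk2, Aldoc and Eno2 lie at or under 1.17 TPM. Reads assigned to genes that share sequence are not included. Eno1 alone is at 144 TPM, but summed with its 7 sharing genes it is at 838 CPM, against 813 CPM for Ldha summed likewise. Tpi1, at 17.55 TPM, is mostly a transcript with a retained intron, so its point does not give the level of coding mRNA.

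Pkm RNA carries one of a pair of mutually exclusive exons, which give the M1 form of differentiated tissue or the M2 form of proliferating cells. These exons are shown because their use tells the isoenzymes apart. Both are 167 nt long on the plus strand of GRCm38, M1 at chr9:59675029-59675195 and M2 at chr9:59675568-59675734. They are identical at 61.7% of positions, and the 64 bases that differ are in capitals.
M1 exon: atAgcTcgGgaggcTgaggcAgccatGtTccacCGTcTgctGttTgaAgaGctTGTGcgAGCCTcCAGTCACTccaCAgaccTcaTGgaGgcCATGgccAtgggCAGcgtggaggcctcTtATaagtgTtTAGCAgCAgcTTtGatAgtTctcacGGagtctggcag
M2 exon: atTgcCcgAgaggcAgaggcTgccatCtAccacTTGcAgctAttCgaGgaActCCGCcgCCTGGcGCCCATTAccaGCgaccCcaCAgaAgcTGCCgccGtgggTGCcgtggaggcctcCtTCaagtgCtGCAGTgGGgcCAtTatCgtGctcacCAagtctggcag
The M1 transcript took 10.9%, 55.6%, 11.2% and 11.9% of Pkm estimated counts in corticosterone replicates 1 to 4 and 11.6%, 11.6%, 11.8% and 11.8% in medium. Corticosterone replicate 2 was far above the other 7 libraries, which all favoured M2 (85.7% to 87.1%). The difference was 10.7 percentage points (p = 0.8857 in an exact two-sided permutation of the libraries, which cannot go below 0.02857). Without corticosterone replicate 2 it was -0.38 (exact p = 0.2857) and in the 6 libraries -0.17 (exact p = 0.6667). With so few libraries, neither of these permutation p-values could have fallen under 0.05, so they cannot show a difference.

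The same split between libraries ran through other transcripts. For 22 genes with at least 2 transcripts of 10% or more, the share of the leading transcript gave no call after adjustment (exact permutation tests). In these exact permutation tests 1 gene, Bnip3l, reached the smallest p possible (raw p = 0.02857, adjusted p = 0.3771). After adjustment, a call would need many of the 22 genes to reach that smallest p together. The lack of calls therefore cannot show that transcript shares were alike between groups. In 14 of the 22, corticosterone replicates 1 and 2 both lay farther from the median of the other 6 libraries than any of those 6. In those 6 libraries the share varied by under 10 points in 14 of 22 genes, and over all 8 libraries in 0 of 22. For Ldha-202 it was 58.2% and 72.7% in corticosterone replicates 1 and 2 and 99.5% to 99.6% elsewhere, while the gene's totals there were 799 and 833 CPM against 782 to 827 CPM.

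**Figure D5:**
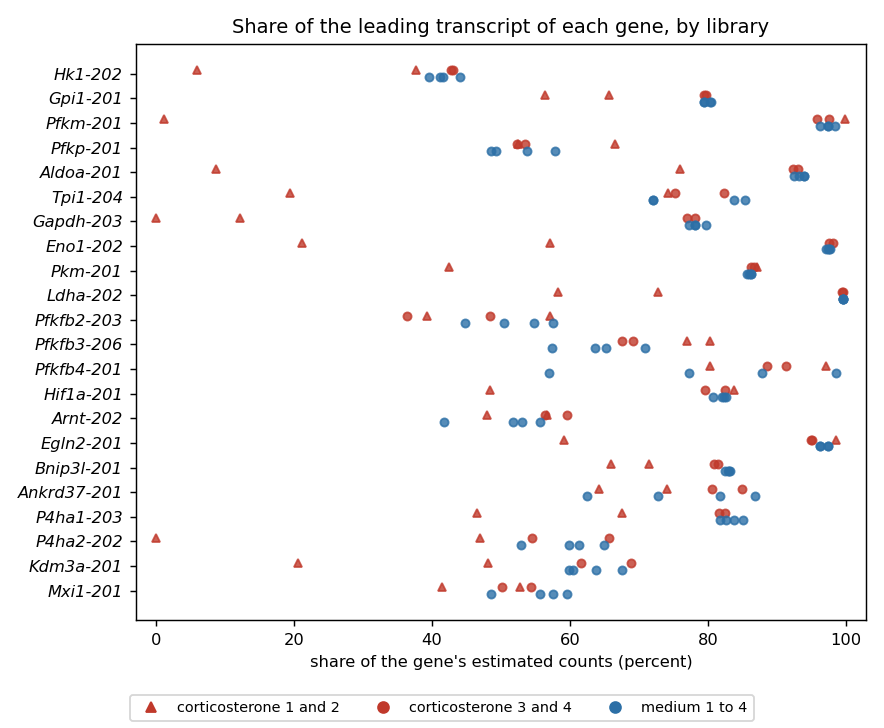
Each point is the share of a gene's estimated counts held by its leading transcript in 1 library, for 22 genes. Corticosterone replicates 1 and 2 (triangles) scatter away from the other 6 libraries for most genes, as for Ldha-202 (58.2% and 72.7% against 99.5% to 99.6%).

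Around these genes, 86 further genes of connected pathways were read, of which 70 were tested: 16 rose and 13 fell, and 14 rose and 14 fell in the 6 libraries. These counts and those by list below stand beside 19.5% higher and 20.6% lower among all genes, and a share near that is no result about a list. For gluconeogenesis 3 of 5 tested genes rose and 1, Pck2, fell (log2 fold change -0.11, adjusted p = 0.029), a call that DESeq2 did not make (adjusted p = 0.0733). Pck1 and G6pc of the same list were too low to be tested. Pck1 was at no more than 0.0633 CPM and G6pc at 0 CPM in every library. Fbp1 and Fbp2, fructose bisphosphatases that run against phosphofructokinase, rose 2.81-fold (11.8 ± 0.807 against 4.18 ± 0.609 CPM; SD, n = 4; adjusted p = 1.51e-07) and 2.20-fold (2.474 ± 0.310 against 1.124 ± 0.163 CPM; adjusted p = 1.52e-04). Pcx, pyruvate carboxylase, rose 1.56-fold (52.8 ± 3.14 against 34.0 ± 1.43 CPM; adjusted p = 2.85e-07).

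At the entry to mitochondria, 2 of 13 genes of pyruvate dehydrogenase and its regulation rose and 3 fell. Pdk1, a kinase that inhibits the complex and a known hypoxia target, measured 52.2, 57.5, 51.0 and 53.6 CPM with corticosterone and 34.7, 36.95, 33.0 and 35.7 CPM in medium. All corticosterone libraries were higher (log2 fold change 0.61, SE 0.0456, adjusted p = 3.52e-07). Pdp1, the phosphatase that reverses that inhibition, fell from 56.2 ± 0.861 to 36.9 ± 1.03 CPM (SD, n = 4; log2 fold change -0.61, adjusted p = 1.05e-08), and Pdha1, a catalytic subunit, rose (log2 fold change 0.31, adjusted p = 2.98e-07). Unlike Pdk1, the kinase gene Pdk3 fell (log2 fold change -0.21, adjusted p = 0.0038), and Pdk2 did not pass (-0.06, adjusted p = 0.602). The remaining fall was the subunit gene Pdhb (log2 fold change -0.15, adjusted p = 0.00209). Pdk4, at no more than 0.760 CPM, did not pass edgeR's filter, and DESeq2 did not call it (adjusted p = 0.691).

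Among glucose and lactate carriers, 1 of 6 rose and 1 fell. Slc2a1, the glucose transporter of the blood-brain barrier, did not pass (81.4 ± 2.20 against 78.6 ± 1.38 CPM; SD, n = 4; adjusted p = 0.17). Slc2a6, a lysosomal hexose transporter, rose at a low level (1.01 ± 0.308 against 0.247 ± 0.0700 CPM; adjusted p = 3.45e-04). It passed edgeR's filter on low counts through the corticosterone libraries alone, so its p is not independent of its entry to the test. Slc16a3, a lactate exporter, fell (log2 fold change -0.37, adjusted p = 0.00778). In the pentose phosphate pathway 2 of 9 rose and 4 fell (1 and 3 in the 6 libraries), with Taldo1 (transaldolase, log2 fold change -0.27, adjusted p = 2.1e-05), G6pdx (its first enzyme, -0.23, adjusted p = 1.36e-04) and Rpia (ribose phosphate isomerase, -0.32, adjusted p = 2.24e-04) the falls of smallest p. Summed with the 2 genes that share its sequence, G6pdx was at -0.07 (adjusted p = 0.0434). The 2 rises of this pathway were Pgd (log2 fold change 0.17, adjusted p = 0.00336) and Tigar (0.16, adjusted p = 0.0381). Pgd kept its call in the 6 libraries (adjusted p = 0.0145) and Tigar did not (adjusted p = 0.196). Of 6 other glycolytic isoenzymes tested 0 were called by edgeR, in all 8 or in the 6 libraries, 0 had an unadjusted p under 0.05 and 0 were called by DESeq2.

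Of 11 other regulators of the factors 3 rose and 0 fell (edgeR). At an unadjusted edgeR p under 0.05, 4 were higher and 1 was lower, and DESeq2 called 4 higher and 0 lower. In the 6 libraries 2 rose and 1 fell, the chaperone Hsp90aa1 (log2 fold change -0.10, adjusted p = 0.0428), which had no call in all 8 (-0.18, adjusted p = 0.25). Arnt2, a relative of Arnt that can also pair with alpha subunits, rose from 10.7 ± 1.19 to 22.1 ± 1.41 CPM (SD, n = 4; log2 fold change 1.05, adjusted p = 2.95e-07). Os9 (log2 fold change 0.13, adjusted p = 0.00872) and the VHL complex subunit Elob (0.10, adjusted p = 0.0317) rose by little. The Os9 call was lost when the model held the 2 libraries that stand apart as a term (adjusted p = 0.0825) and in the 6 libraries with summing (adjusted p = 0.118). Elob was not called in the 6 libraries (adjusted p = 0.11) or without corticosterone replicate 1, 2 or 3 or medium replicate 1, 2 or 4 (adjusted p 0.0562 to 0.0787). Of 20 further hypoxia targets tested 5 rose and 4 fell, and in the 6 libraries 5 rose and 5 fell. The added fall was Bhlhe41, a transcriptional repressor, at 10.9 CPM in corticosterone replicate 1, 4.84 to 5.28 CPM in the other corticosterone libraries and 7.56 to 8.03 CPM in medium. Its log2 fold change was -0.27 in all 8 libraries (adjusted p = 0.5), -0.63 in the 6 (adjusted p = 4.6e-05) and -0.64 without corticosterone replicate 1 (adjusted p = 5.97e-05). Ddit4, an inhibitor of mTORC1 signalling that glucocorticoids are also known to induce, measured 341 ± 14.9 against 110 ± 2.96 CPM (SD, n = 4; 3.11-fold, adjusted p = 3.44e-12). Bhlhe40, a relative of Bhlhe41, rose 1.93-fold (adjusted p = 1.28e-09) and Hmox1, heme oxygenase, fell (log2 fold change -0.28, adjusted p = 6.86e-06). Vegfa, the angiogenic growth factor and a standard hypoxia target, did not pass (11.2 ± 1.02 against 10.5 ± 0.612 CPM; adjusted p = 0.428).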

How the data were processed

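Estimated counts per gene were deposited by the authors in 1 table, and estimated counts and TPM per transcript in a kallisto table for each library, per the file headers; kallisto 0.46.1, bcl2fastq, mm10 and GRCm38 are named per the submitters' processing notes. Not given in the sources used here were the transcript index, read length and strand setting. Transcripts matched GENCODE M21 in 97.2% of cases. Estimated counts were rounded and fitted with edgeR 4.0.16 (R 4.3.3; filterByExpr, TMM, quasi-likelihood test, group as the single term) on all 13272 genes kept. SE is the log2 fold change divided by the square root of F. TPM served for levels alone, since the 2 kinds of effective length put it on different scales. Each gene was summed with those holding 10% or more of its 31-mers, or it of theirs, as an alternative; with only the 6 libraries, that sum was added after seeing the data. The libraries had no molecular identifiers, so intervals treat PCR copies as separate molecules.

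The genes, lists and tests were chosen with earlier results of these data known. All 37 genes are named; values in every library are given for called genes with an absolute log2 fold change of at least 0.25 and for 9 genes fixed by name, and of each companion list the 3 called genes of smallest p, with Slc2a1, Pdk1, Pdk4 and Vegfa. Other genes named (Eno1b, Pitrm1, Pdgfra, Hsp90aa1, Bhlhe41, Pck1, Pck2, G6pc, Pdk2, Pdk3, Pdhb, Pgd, Tigar and pseudogenes) were chosen after their values were seen. In simulated counts for 13272 genes, the test recovered 49% of 1.25-fold and 82% of 2-fold changes, and 5.07% of its calls were false. The simulation changed 100 genes at each size, where 40.1% of genes were called in the data, and did not model the 2 libraries that stand apart. It therefore does not measure false calls in these data. Alternatives were DESeq2 1.42.0, scaling, filters, a term for the 2 libraries, a replicate block and leaving out each library.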

Additional observations from a re-analysis of the deposited data

Results flagged for a closer look

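In 7 of 76 groups of 4 libraries, 1 library lay far from the other 3, by a measure that chance meets in about 5% of groups. In corticosterone these were Gapdh in replicate 1 (2502 CPM), Pgk1 in replicate 2 (698.8 CPM) and the Pkm M1 share in replicate 2 (55.58%), all in the libraries with the other effective length. In medium, replicate 3 was low for Epas1 (307.6 CPM) and Ndrg1 (62.05 CPM) and held the single medium count of Hif3a (0.05025 CPM). Medium replicate 1 was low for Pfkfb4 (3.073 CPM). Medium replicate 3 was also the library with the smallest total (19.75 M counts). The part of depth in these values was not tested.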

How the results depend on the processing

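Across 17 alternatives Hk1, Gpi1, Pfkl, Pfkp, Pfkfb3, Epas1, Egln3, P4ha2, Bnip3 and Bnip3l kept direction and call in all, and Hif3a in the 16 that kept it. Summing genes that share sequence gave 3965 higher genes against 2590, from overlapping and more numerous features. DESeq2 called 3 of the 37 lower, against 5, and called Tpi1 (adjusted p = 0.0188) and Ldhb (0.00138) higher, which edgeR did not. Calls also appeared without 1 library, for Pfkm lower (medium replicate 3, adjusted p = 0.0209), Pfkfb2 higher (medium replicate 1, 0.0465) and Slc2a1 higher (corticosterone replicate 4, 0.0398). Pfkm (0.0179) and P4ha1 (0.038) were lower by library size, and P4ha1 in the 6 with summing (0.0299). The sign of values without a call changed as follows, with causes not tested. Tpi1 was -0.25 in the 6 libraries and with a term for the 2 libraries, and -0.28 in the 6 with summing. Pgk1 was -0.0245 by library size and -0.0576 with the replicate block, and -0.082 to 0.209 when 1 library was left out. Ankrd37 was -0.0155 by library size. Ndrg1 was -0.00668 in the 6 libraries, -0.0101 by library size, -0.0058 with the term and -0.025 in the 6 with summing. Leaving out 1 library gave -0.088 to 0.0645 for Pgam1, -0.2525 to 0.0352 for Eno1, -0.0356 to 0.0856 for Ankrd37 and -0.0311 to 0.058 for Ndrg1. The Pkm M1 difference was -0.17 points in the 6 libraries and -0.38 to 14.5 when 1 library was left out. Same-numbered libraries did not deviate together (correlations -0.053 to 0.03). The deviations were taken from group means that include the 2 libraries that stand apart, so these values cannot exclude pairing by number. The replicate block called 4913 genes and 13 of the 37, 9 higher and 4 lower.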
